A study of Mus musculus with 36 samples.

Results

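Hearts of mice given bacterial lipopolysaccharide (LPS) followed by genipin were compared with hearts of mock mice, over 3 arrays each, 6 of the 36 arrays of the study. The arrays were chosen by their labels alone, as the heart arrays of those groups. All groups were female mice of the FVB strain, 6 to 8 weeks old and carrying a luciferase transgene; the sources used here do not give its promoter. The LPS+genipin group received LPS into the peritoneal cavity at 4 mg/kg and genipin 10 min later, the LPS group received the same LPS without genipin, the mock group received neither, and organs were collected 4 h later. The study description lists 25 mice in 5 groups of 5, with genipin at 1, 10 or 100 mg/kg. The dose behind the arrays is not stated, nor if each array was hybridised with RNA of a different mouse. The p-values below therefore measure the spread between these arrays, which may be technical. There was no group given genipin without LPS among the arrays, so a difference between LPS+genipin and mock hearts holds the effects of both agents. The 3 LPS heart arrays are given beside them, and share the mock arrays with the comparison.

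LPS, a component of the outer membrane of Gram-negative bacteria, is bound by LBP and CD14 and sensed by the receptor TLR4 with its partner MD-2. Through the adaptor MYD88 the receptor activates the transcription factor NF-kB, which drives chemokines, adhesion molecules and its own inhibitors, and through TRIF it induces interferons, which act by way of STAT proteins on interferon-stimulated genes. In heart, endothelial cells, resident macrophages, fibroblasts and cardiomyocytes all respond to LPS or to the cytokines it elicits, and endotoxaemia is known to depress contraction and to activate the vessel wall. Genipin, a compound from gardenia fruit, is known to cross-link proteins and to inhibit the mitochondrial uncoupling protein UCP2.

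Values are normalized array intensities, and differences are log2 differences between group means ± standard error (SE) from limma, fitted on all 9 heart arrays with p-values adjusted over 9669 genes. Of these genes, 1892 passed an adjusted p of 0.05 in LPS+genipin against mock hearts (19.6%), 719 of them higher (7.44%) and 1173 lower (12.1%). Of the 156 genes that also differed at least 2-fold (1.61%) most were higher, with 124 higher (1.28%) and 32 lower (0.331%) in LPS+genipin hearts. The 3 arrays of each group did not overlap for 3996 genes (41.3%). In LPS hearts 4550 genes passed against the same mock arrays (47.1%), and 466 genes were at least 2-fold higher (4.82%) and 224 lower (2.32%). Between LPS+genipin and LPS hearts 4047 genes passed (41.9%). Leaving out LPS+genipin array 1 or 2, or mock array 2, lowered the number of genes that passed to 1200, 1197 and 1250, while the number at least 2-fold apart stayed between 147 and 170 whichever of the 6 arrays was left out. The median difference over all genes was -0.04. Correlations between arrays of a group ran from 0.984 to 0.994, and the median intensity of an array was 1463 to 1464.

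The samples carried the marks of ventricular muscle. All 12 markers of ventricular and general cardiomyocytes were measured, among them the myosin chains Myh6, Myl2 and Myl3 and the troponins Tnnt2 and Tnni3, and limma called none of the 12, also at an unadjusted p of 0.05; most were saturated in both groups, so that a change could not be seen. Markers of atrial muscle were low. The summed intensity of the 6 measured was 8194 to 8568 in LPS+genipin hearts, 160178 to 166642 in LPS hearts and 9860 to 10939 in mock hearts. Myl7, the atrial myosin light chain, was at 679, 773 and 696 in LPS+genipin hearts, 65488, 65486 and 65485 in LPS hearts and 1414, 1219 and 1260 in mock hearts. The LPS hearts stood far above the other groups, and the LPS+genipin hearts were lower than mock, at -0.86 ± 0.07 (adjusted p = 0.000201). Gja5, a gap junction channel of atrial and conduction tissue and of arterial endothelium, also was lower at -0.72, although its other probe gave -0.08, and the remaining 4 atrial markers did not pass.

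Fat markers showed the same separation of the LPS hearts. The 7 adipocyte markers summed to 47839 to 57084 in LPS+genipin hearts, 166588 to 182301 in LPS hearts and 40032 to 45456 in mock hearts, and limma called none of the 7 in LPS+genipin against mock hearts (1 at an unadjusted p of 0.05). Adipoq, the adipocyte hormone adiponectin, differed by 0.02 and Cfd, the serine protease adipsin, by -0.07, where LPS against mock hearts gave 4.97 and 5.62. Values of LPS hearts in the following paragraphs carry this difference in atrial and fat transcripts, whose part in them was not tested; between LPS+genipin and mock hearts no fat marker and 2 atrial markers passed, and those 2 were lower.

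**Figure D1:**
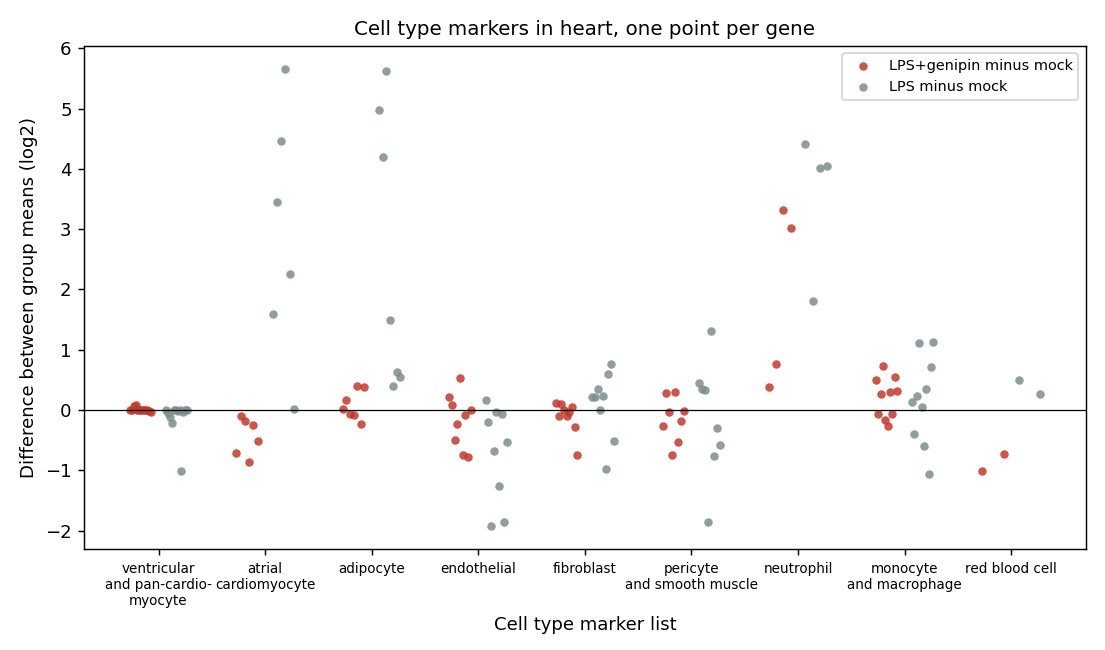
Differences from mock hearts (log2, vertical axis) for the measured markers of 9 cell types, one point per gene, with LPS+genipin hearts left of LPS hearts in each pair. Atrial and adipocyte markers reached 5.66 and 5.62 in LPS hearts, while neutrophil markers were the highest in LPS+genipin hearts, up to 3.32.

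Among blood cell markers, those of neutrophils rose, of which 4 of 12 were measured. S100a8 and S100a9, subunits of calprotectin, a calcium- and zinc-binding protein abundant in neutrophils, and Retnlg passed as higher at 3.32, 3.01 and 0.76, and Ltf, lactoferrin, did not at 0.38 (4.42 in LPS hearts). S100a8 was at 10018, 9552 and 8827 in LPS+genipin hearts, 15581, 15701 and 14996 in LPS hearts and 914, 976 and 959 in mock hearts. The groups did not overlap, and LPS+genipin hearts lay between LPS and mock hearts. In whole tissue a larger number of cells of a type and more RNA per cell cannot be told apart. Of 10 monocyte and macrophage markers 5 were higher, at 0.26 to 0.72, and none was lower. The calls of Cd163, Msr1 and C1qb within these 5 were lost when single arrays were left out, and Mrc1, the mannose receptor, and Adgre1, a macrophage surface receptor, kept theirs. Cd3e, a T cell receptor chain, was higher at 1.17 ± 0.21 (adjusted p = 0.00659), and was the only 1 of 10 T cell and NK cell markers measured. None of the 3 measured B cell markers passed. Both measured red cell markers were lower, Alas2, the first enzyme of haem synthesis in erythroid cells, at -1.01 ± 0.08 (adjusted p = 0.000128) and Slc4a1, the erythroid anion exchanger, at -0.73 ± 0.13 (adjusted p = 0.00659). Alas2 was at 7013, 8306 and 7960 in LPS+genipin hearts, 21715, 23566 and 20890 in LPS hearts and 16430, 14969 and 15487 in mock hearts, so the LPS+genipin hearts were the lowest of the groups. Alb, serum albumin, was higher at 0.95 and the other 3 hepatocyte markers did not pass.

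**Figure D2:**
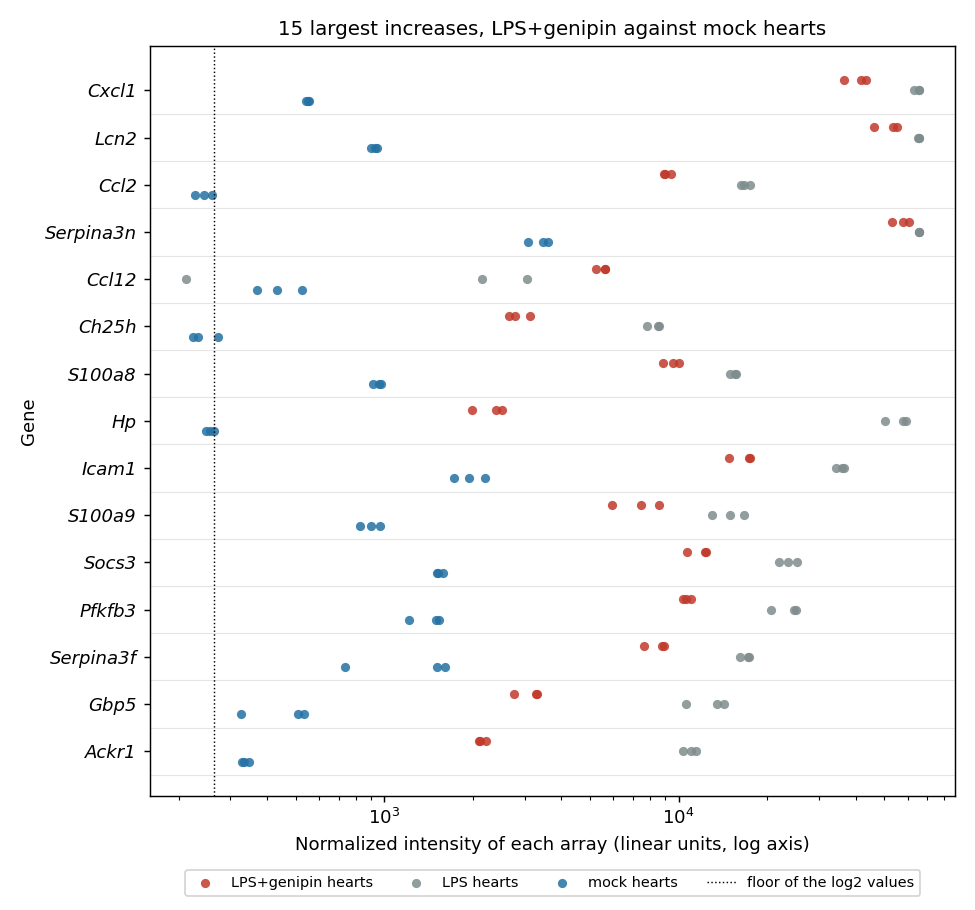
Normalized intensity on each array (horizontal, log axis) of the 15 genes with the largest increases, with LPS+genipin, LPS and mock hearts drawn from top to bottom for each gene and the floor of the log2 values as a dotted line. In all 15 genes the LPS+genipin arrays lie above the mock arrays, and for Hp they lie at 1988, 2513 and 2404 where the LPS arrays lie at 59337, 57910 and 50208.

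The largest increases were in secreted proteins of the acute inflammatory response. Cxcl1 (chromosome 5, 90891245 to 90893121, GRCm38.p6), a neutrophil-attracting chemokine, was at 41516, 43234 and 36565 in LPS+genipin hearts, 65479, 63062 and 65479 in LPS hearts and 541, 557 and 551 in mock hearts. This was 6.20 ± 0.07 (adjusted p = 1.12e-09) above mock, or 73.4-fold, and at least 0.68 below LPS hearts on the log2 scale, because the LPS arrays were saturated. Lcn2 (chromosome 2, 32384637 to 32387739), lipocalin 2, which withholds iron from bacteria, was at 55134, 53606 and 46108 in LPS+genipin hearts, 65482, 64837 and 65483 in LPS hearts and 946, 927 and 900 in mock hearts, a difference of 5.80 ± 0.07 (adjusted p = 1.98e-09) from mock. Ccl2 (chromosome 11, 82035577 to 82037452), a monocyte-attracting chemokine, was at 8977, 8934 and 9417 in LPS+genipin hearts, 16682, 17513 and 16293 in LPS hearts and 227, 244 and 259 in mock hearts. All mock arrays were below the floor for Ccl2, so that it was at least 34.6-fold higher (adjusted p = 9.35e-10). These 3 genes were the only ones above 5 on the log2 scale, and in each of them the LPS hearts lay higher still.

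Of the 13 measured chemokines, 11 were higher and 1 was lower in LPS+genipin hearts (median 0.79). Ccl12, a monocyte chemokine related to Ccl2, was at 5632, 5233 and 5614 in LPS+genipin hearts, 2152, 212 and 3052 in LPS hearts and 370, 433 and 525 in mock hearts. Its LPS+genipin arrays stood above all LPS arrays, of which LPS array 2 lay below the floor, and the difference from mock was 3.65 ± 0.79 (adjusted p = 0.0153); without LPS+genipin array 1 it was 3.63 with an adjusted p of 0.0506. Cxcl9, an interferon-gamma-induced attractant of T cells, was higher by 1.56 ± 0.07 (adjusted p = 4.16e-06) against 5.21 in LPS hearts. Cxcl14 (1.14) and Ccl11 (1.09), the eosinophil chemokine eotaxin, rose as well. The chemokine that was lower, named here because it was alone in that direction, was Cxcl12, which retains leukocytes and progenitors through CXCR4; it was at 7906, 9127 and 10421 in LPS+genipin hearts, 3571, 3958 and 3047 in LPS hearts and 17819, 15859 and 15516 in mock hearts, -0.85 ± 0.13 (adjusted p = 0.0032) from mock. LPS+genipin hearts lay between LPS and mock hearts for Cxcl12 without overlap.

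Ackr1, a receptor of venular endothelium and red cells that binds chemokines without signalling, was higher by 2.67 ± 0.06 (adjusted p = 6.54e-08), with intensities of 2104, 2209 and 2117 in LPS+genipin hearts, 10309, 11422 and 10990 in LPS hearts and 348, 334 and 328 in mock hearts. Among 18 cytokines and cytokine receptors 9 were higher and none lower (median 0.52). Csf3, the granulocyte colony-stimulating factor, rose by 2.23 (4.08 in LPS hearts), Csf1, which maintains macrophages, by 1.03 (1.79), and the receptors Il4ra by 1.37 (2.13) and Osmr, for oncostatin M, by 1.22 (2.24). Tnf, the tumour necrosis factor gene, was at 616, 634 and 449 in LPS+genipin hearts, 342, 335 and 479 in LPS hearts and 315, 341 and 240 in mock hearts, close to the floor in every group. Its difference from mock, 0.88 ± 0.19 (adjusted p = 0.0141), passed, but not without LPS+genipin array 1 (0.81, adjusted p = 0.0541) or array 2 (0.79, adjusted p = 0.0541), and not with the floor raised to 500.

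Proteins that recognise LPS and relay its signal were higher for 8 of 16 measured and lower for none. Lbp, the serum protein that hands LPS to CD14, rose by 2.58 ± 0.07 (adjusted p = 3.48e-07), Tlr2, a receptor for bacterial lipoproteins, by 2.17 ± 0.08 (adjusted p = 1.42e-06), and Irak3, a kinase-like inhibitor of the pathway, by 2.04 ± 0.06 (adjusted p = 6.62e-07). Smaller increases were measured for the coreceptor Cd14 (1.12), the adaptor Myd88 (0.85) and Irak2 (0.74), a kinase of the same complex. The receptor itself, Tlr4, named after its values were seen, was at 2315, 2099 and 1788 in LPS+genipin hearts, 1557, 1817 and 1937 in LPS hearts and 2407, 2285 and 2137 in mock hearts and did not pass (-0.15, adjusted p = 0.411).

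NF-kB feedback and target genes moved in one direction, with 12 of 16 measured members higher, none lower and a median of 0.92 (1.52 in LPS hearts). Nfkbiz, an atypical inhibitor protein that helps NF-kB at secondary targets, was at 1795, 2059 and 2259 in LPS+genipin hearts, 6249, 4637 and 4252 in LPS hearts and 388, 494 and 445 in mock hearts, 2.20 ± 0.16 (adjusted p = 7.46e-05) above mock. Nfkbia, the inhibitor IkB-alpha that NF-kB itself induces, was at 48285, 46396 and 49380 in LPS+genipin hearts, 65479, 64837 and 65368 in LPS hearts and 17589, 19053 and 19578 in mock hearts, 1.36 ± 0.06 (adjusted p = 3.1e-06) above mock. Ikbke (1.98), a kinase of the interferon arm, Map3k8 (1.80), a kinase upstream of ERK, Birc3 (1.27), a ubiquitin ligase, and Bcl3 (1.22), a nuclear partner of p50 and p52, followed, and in all of these genes the mean of LPS hearts was higher than that of LPS+genipin hearts. Tnip1, which limits NF-kB together with A20 and is named for its promoter after its values were seen, was higher by 1.09 ± 0.15 (adjusted p = 0.00218).

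The promoters of Nfkbia and Tnip1 are shown because they were the members with the largest differences whose 250 bases before the first listed start hold an NF-kB motif. The motif was searched on both strands as GGG, any 2 bases, then TTTCC or TTCCC, and it is in capitals. Sequences are from RefSeq (GRCm38.p6), 5′ to 3′ on the strand of the gene.
Nfkbia, chr12:55492648-55492897, minus strand: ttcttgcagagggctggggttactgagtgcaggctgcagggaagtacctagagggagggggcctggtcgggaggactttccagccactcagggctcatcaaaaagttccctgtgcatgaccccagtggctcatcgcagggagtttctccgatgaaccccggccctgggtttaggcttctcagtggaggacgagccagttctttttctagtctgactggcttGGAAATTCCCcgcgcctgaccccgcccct
Tnip1, chr11:54962941-54963190, minus strand: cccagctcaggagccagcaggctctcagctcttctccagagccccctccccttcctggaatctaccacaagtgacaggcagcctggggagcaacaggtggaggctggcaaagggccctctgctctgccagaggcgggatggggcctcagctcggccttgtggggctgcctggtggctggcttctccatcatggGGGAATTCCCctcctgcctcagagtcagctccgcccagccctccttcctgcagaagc
One or the other form was present in 3 of the 12 promoters found for the list (25.0%), in 11 of the 98 promoters found for the 124 genes higher at least 2-fold (11.2%), and in 2.90% of the 7815 promoters of measured heart genes. Of the 26 promoters found for the 32 genes lower at least 2-fold, 2 held a form (7.69%). A stretch can hold both forms, which may overlap. A match is a description of letters, and no binding was measured.

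Interferon-stimulated genes were the list with the most members higher. Of 38 measured members 33 were higher and none lower, with a median of 0.86 against 2.37 in LPS hearts and -0.04 for all genes. Gbp5, a guanylate-binding protein that promotes inflammasome assembly, was at 3281, 2752 and 3300 in LPS+genipin hearts, 14209, 10607 and 13528 in LPS hearts and 325, 511 and 534 in mock hearts, 2.80 ± 0.20 (adjusted p = 6.8e-05) above mock, and its second probe gave 1.25. Gbp3, another member of that family, was at 6127, 6231 and 6472 in LPS+genipin hearts, 29129, 34031 and 28470 in LPS hearts and 1510, 1407 and 1407 in mock hearts, 2.12 ± 0.08 (adjusted p = 1.42e-06) above mock. LPS hearts lay above LPS+genipin hearts in both genes, with differences between them of -2.03 ± 0.20 (adjusted p = 0.000122) and -2.28 ± 0.08 (adjusted p = 4.99e-07). Ifi47 (2.33) and Irgm2 (1.88), GTPases induced by interferon-gamma, and Ifit3 (1.90) and Isg15 (1.88), antiviral proteins induced by type I interferon, rose alongside, at 4.75, 3.42, 4.25 and 4.15 in LPS hearts.

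The promoters of Gbp5 and Gbp3 are shown by the same rule. They were the members with the largest differences, among those considered, whose upstream sequence holds the core of the interferon-stimulated response element. The core was searched on both strands as GAAA, any 2 bases, GAAA, and is in capitals; in Gbp3 a pair of matches overlap. The Gbp3 stretch precedes the start that the promoter table lists first, which lies inside the span listed for the gene, so its last bases are within that span.
Gbp5, chr3:142496684-142496933, plus strand: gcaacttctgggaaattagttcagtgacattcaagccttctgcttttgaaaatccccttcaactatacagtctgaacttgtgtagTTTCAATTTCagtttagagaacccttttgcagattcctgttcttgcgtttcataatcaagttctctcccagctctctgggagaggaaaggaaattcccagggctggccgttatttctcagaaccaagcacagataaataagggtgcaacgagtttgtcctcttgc
Gbp3, chr3:142559794-142560043, plus strand: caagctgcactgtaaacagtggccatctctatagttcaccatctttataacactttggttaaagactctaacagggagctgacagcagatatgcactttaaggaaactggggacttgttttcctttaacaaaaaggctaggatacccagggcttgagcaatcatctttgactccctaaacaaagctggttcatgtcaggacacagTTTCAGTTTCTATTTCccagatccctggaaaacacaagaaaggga
In both promoters the core lies on the opposite strand. It was present in 14 of 32 promoters found for the list (43.8%), in 10 of 98 found for genes higher at least 2-fold (10.2%), in 2.51% of the promoters of measured heart genes and in 3.04% of all 27025 RefSeq promoters. The gamma-activated site TTCNNNGAA was present in 14 of the same 98 (14.3%) and in 5.89% of those of measured heart genes. Of the 26 promoters found for genes lower at least 2-fold, 1 held the interferon core (3.85%) and 2 held the gamma-activated site (7.69%).

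Antigen presentation by MHC class I moved less. There were 6 of 12 measured members higher and none lower, among them Cd274 (1.10), the ligand of PD-1, Psmb9 (0.99) and Psmb8 (0.73), immunoproteasome subunits, and B2m (0.69), the light chain of MHC class I. LPS hearts gave 3.46, 2.26, 2.08 and 0.83. Psmb8 lost its call without LPS+genipin array 2, where it stood at 0.69 (adjusted p = 0.0514).

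Acute-phase and iron-binding proteins were higher for 8 of 10 measured (median 1.60), none lower. Serpina3n, an inhibitor of serine proteases, was at 60672, 57739 and 52953 in LPS+genipin hearts, 65484, 65488 and 65489 in LPS hearts and 3068, 3458 and 3601 in mock hearts, 4.08 ± 0.08 (adjusted p = 3.1e-08) above mock, and all its LPS arrays were saturated. Hp, haptoglobin, which binds free haemoglobin, was at 1988, 2513 and 2404 in LPS+genipin hearts, 59337, 57910 and 50208 in LPS hearts and 257, 264 and 247 in mock hearts. Its LPS+genipin arrays were 3.12 ± 0.10 (adjusted p = 6.62e-07) above mock and -4.60 ± 0.10 (adjusted p = 5.63e-08) from LPS hearts, the widest gap between those groups among the 15 genes with the largest increases. Lrg1 (1.82) and Steap4 (1.37), a metalloreductase, rose as well. Serpina3f, a relative of Serpina3n, was higher by 2.80 ± 0.26 (adjusted p = 0.000318).

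Vessel wall genes moved both ways. Icam1, the endothelial ligand of leukocyte integrins, was at 14852, 17513 and 17310 in LPS+genipin hearts, 34270, 36462 and 35965 in LPS hearts and 2195, 1725 and 1941 in mock hearts, 3.09 ± 0.10 (adjusted p = 7.18e-07) above mock. Vcam1, which binds monocytes and lymphocytes, rose by 1.21 (3.44 in LPS hearts), and Plaur, the urokinase receptor, by at least 0.98, its mock arrays being at the floor. Of 10 measured genes of adhesion and coagulation these were the 3 that were higher, and 2 were lower, Anxa2 (-0.44) and Vwf (-0.34); the call of Vwf was lost when any of 5 arrays was left out.

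In contrast, genes of vascular quiescence and angiogenic signalling were lower for 16 of 32 measured and higher for 1, with a median of -0.22. Hey1, a transcriptional repressor downstream of Notch, was at 899, 983 and 881 in LPS+genipin hearts, 347, 431 and 321 in LPS hearts and 1954, 2178 and 2189 in mock hearts, -1.19 ± 0.11 (adjusted p = 0.000301) from mock. Tek, the receptor of angiopoietins, was at 3794, 3921 and 3719 in LPS+genipin hearts, 1641, 2120 and 1690 in LPS hearts and 6280, 6180 and 7226 in mock hearts, -0.78 ± 0.11 (adjusted p = 0.00208) from mock. In both genes the LPS+genipin arrays lay between the mock arrays and the lower LPS arrays without overlap. Apln, apelin (-0.87), Ptprb, a phosphatase of the endothelium that acts on Tek (-0.77), and Klf4, a shear-responsive transcription factor (-0.76, with its probes between -0.76 and -0.42), were lower. Pcdh12, an endothelial protocadherin, was at -1.10 ± 0.07 (adjusted p = 2.92e-05) on the probe used and at 0.14 on its other probe. Kdr, the main receptor of VEGF, was at 6532, 7584 and 6824 in LPS+genipin hearts, 5018, 5220 and 4350 in LPS hearts and 11838, 10501 and 12625 in mock hearts, -0.74 ± 0.10 (adjusted p = 0.00202) from mock. The general endothelial markers Pecam1 (-0.08), Cdh5 (0.21), Cldn5 (0.08) and Tie1 (-0.01) did not pass, and of the 9 endothelial markers 3 were lower and 1, Esam (0.53), was higher, with a call lost when any of 5 arrays was left out. The 9 markers summed to 50050 to 53127 in LPS+genipin hearts, 38242 to 38959 in LPS hearts and 57997 to 61118 in mock hearts; the part of endothelial content in the lower vascular genes was not tested.

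Early response genes and feedback regulators were partly higher. Socs3, the inhibitor of JAK signalling induced by STAT3, was at 12332, 12403 and 10660 in LPS+genipin hearts, 25163, 21907 and 23535 in LPS hearts and 1583, 1507 and 1520 in mock hearts, 2.94 ± 0.08 (adjusted p = 2.8e-07) above mock. Of 24 immediate early genes 10 were higher and 5 lower. Egr1 (1.98), Fos (1.17), Btg2 (1.31), an antiproliferative factor, Zfp36 (1.13), which destabilises cytokine mRNA, and Atf3 (0.99) rose, at 2.80, 3.06, 2.33, 1.96 and 2.54 in LPS hearts. The 5 that were lower, named after their values were seen, were Klf4, Fosb (-0.76), Ccn2 (-0.65), Egr2 (-0.56) and Myc (-0.39). Among 18 JAK-STAT genes 7 were higher and 1 lower, with Pim3 (1.01), Stat2 (0.90), Jak2 (0.89) and Cebpb (0.88), a transcription factor of the acute-phase response, next after Socs3.

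Genes that glucocorticoids are known to induce, with the metallothioneins, were higher for 9 of 14 measured and lower for none (median 0.82). The largest increases among them were those of Lcn2 (5.80) and Nfkbia (1.36), which are also in the acute-phase and NF-kB lists above. Fkbp5, a cochaperone of the glucocorticoid receptor, was at 15161, 16624 and 17080 in LPS+genipin hearts, 15971, 14950 and 12774 in LPS hearts and 6597, 7152 and 5552 in mock hearts, 1.35 ± 0.12 (adjusted p = 0.0002) above mock. Pdk4, which blocks entry of pyruvate into oxidation, was at 52953, 49380 and 54598 in LPS+genipin hearts, 63431, 51245 and 55508 in LPS hearts and 18031, 22243 and 22592 in mock hearts, 1.33 ± 0.11 (adjusted p = 0.000165) above mock. Between LPS+genipin and LPS hearts these 2 genes differed by 0.17 ± 0.12 (adjusted p = 0.288) and -0.11 ± 0.11 (adjusted p = 0.45), which did not pass. Cdkn1a (1.27, and 0.81 on another probe), the cell cycle inhibitor p21, and Sult1a1 (1.04), a sulphotransferase, also rose.

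Metabolic lists are set here beside the shares over all genes, 7.44% higher and 12.1% lower. Pfkfb3, whose product makes the activator of phosphofructokinase, was at 10607, 10373 and 10981 in LPS+genipin hearts, 25004, 20647 and 24571 in LPS hearts and 1216, 1501 and 1531 in mock hearts, 2.92 ± 0.11 (adjusted p = 1.46e-06) above mock. Of 21 genes of glucose uptake and glycolysis, a list that also holds regulators, 5 were higher and 1 lower. The others that rose were Hif1a (0.81), Arrdc3 (0.79), Txnip (0.54) and the transporter Slc2a1 (0.50). No enzyme of the glycolytic steps themselves was among the 5. Of 27 genes of fatty acid oxidation and PPARA targets 4 were higher, namely Pdk4, Angptl4 (1.25), an inhibitor of lipoprotein lipase, Ucp3 (0.75), a mitochondrial uncoupling protein, and Plin5 (0.47), a lipid droplet protein. The coactivator of mitochondrial biogenesis, Ppargc1a, was lower at -0.55 ± 0.09 (adjusted p = 0.00509), and LPS hearts stood at -1.65. Limma called none of 35 genes of oxidative phosphorylation, also at an unadjusted p of 0.05; 19 of them were saturated in both groups and gave no fold. Ch25h, cholesterol 25-hydroxylase, which makes an antiviral oxysterol, was at 3130, 2785 and 2658 in LPS+genipin hearts, 7802, 8490 and 8563 in LPS hearts and 232, 224 and 273 in mock hearts, 3.42 ± 0.07 (adjusted p = 6.54e-08) above mock, and was the only one of 11 cholesterol genes to pass.

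Casp4, the caspase that binds intracellular LPS, rose by 2.20 ± 0.07 (adjusted p = 6.62e-07), against 3.91 in LPS hearts, and of 10 genes of cell death and survival 4 were higher and 1 lower. Among antioxidant genes under NRF2, 4 of 22 were higher and 1 lower, led by Hmox1, haem oxygenase 1, at 1.06 ± 0.07 (adjusted p = 3.44e-05), against 1.10 in LPS hearts.

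**Figure D3:**
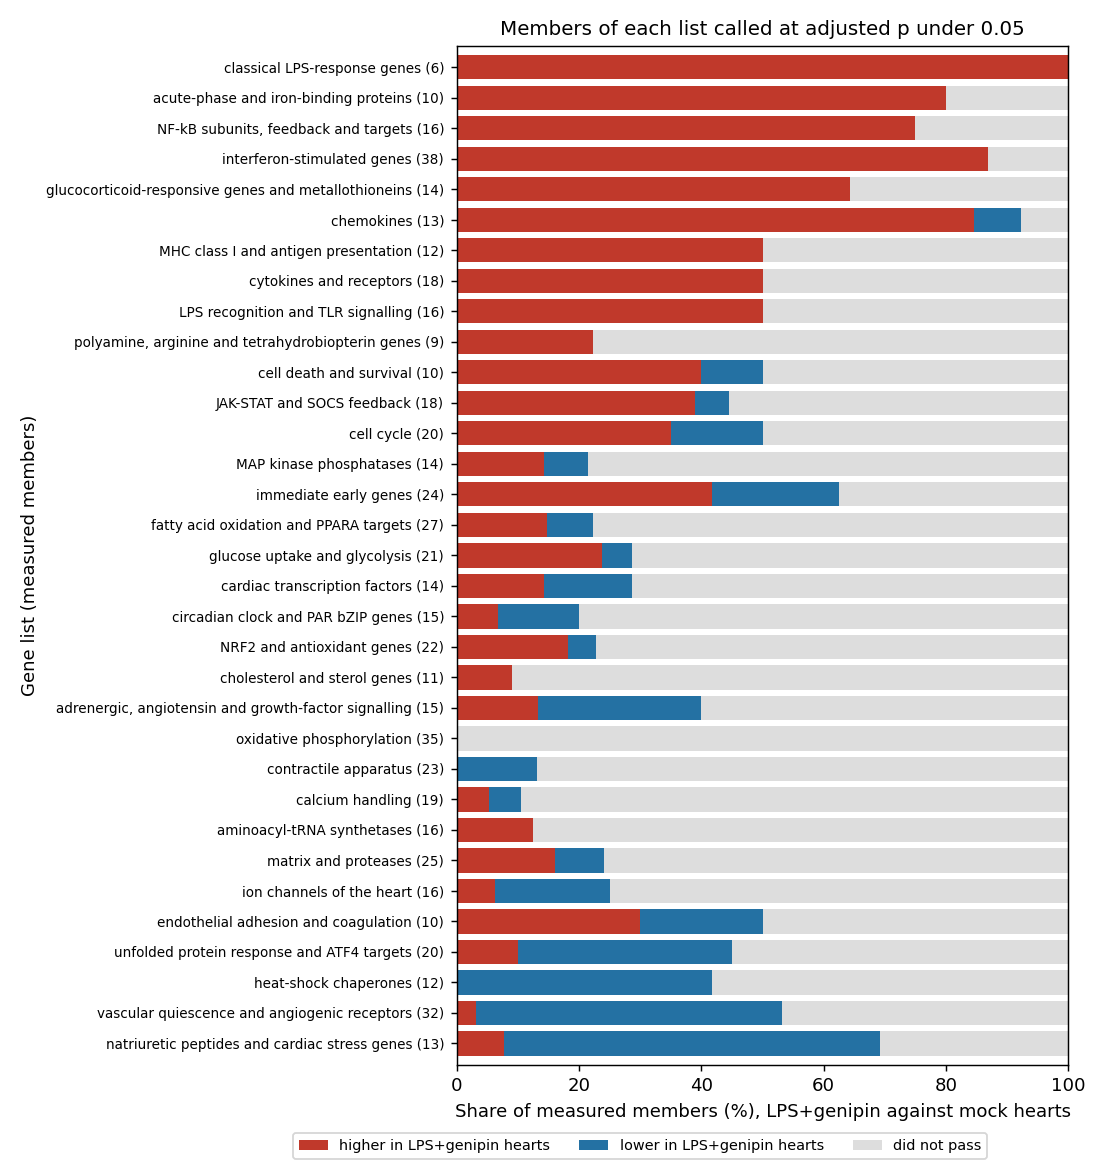
Share of the measured members of each of 33 gene lists (horizontal, percent; number measured in brackets) that were higher, lower or did not pass in LPS+genipin against mock hearts at an adjusted p of 0.05, ordered by the list's median difference. Over all genes 7.44% were higher and 12.1% lower; interferon-stimulated genes had 33 of 38 higher and vascular quiescence genes 16 of 32 lower.

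**Figure D4:**
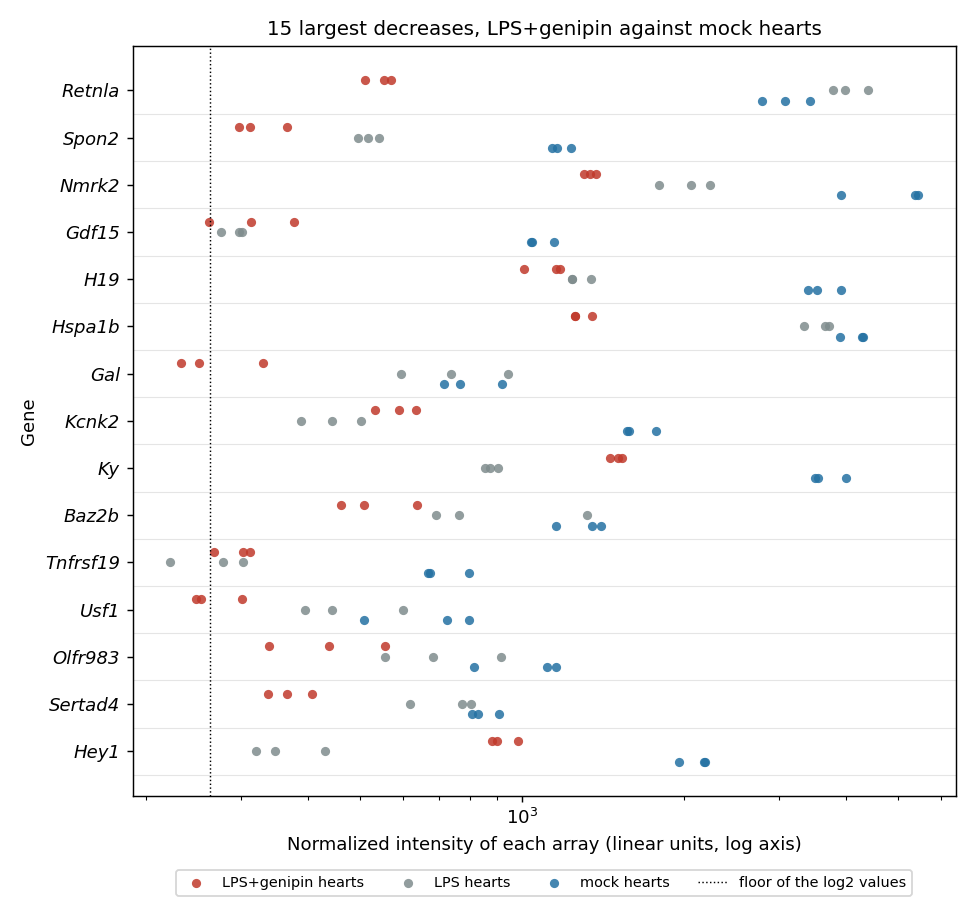
Normalized intensity on each array (horizontal, log axis) of the 15 genes with the largest decreases, with LPS+genipin, LPS and mock hearts drawn from top to bottom for each gene. In all 15 the LPS+genipin arrays lie below the mock arrays, whereas the LPS arrays lie in the same range as the mock arrays for Gal, slightly below them for Hspa1b, above them for Retnla, and below both other groups for Ky and Hey1.

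The largest decrease was in Retnla (chromosome 16, 48842609 to 48844461, GRCm38.p6), a secreted protein of alternatively activated macrophages and fat. It was at 512, 554 and 570 in LPS+genipin hearts, 3780, 3974 and 4385 in LPS hearts and 2787, 3074 and 3425 in mock hearts, a difference of -2.50 ± 0.09 (adjusted p = 1.46e-06) from mock. The LPS hearts were higher than mock by 0.39 ± 0.09 (adjusted p = 0.00928), so that LPS+genipin hearts differed from LPS hearts by -2.89 ± 0.09 (adjusted p = 3.8e-07). Spon2, an extracellular matrix protein that binds bacterial LPS, was at 366, 298 and 312 in LPS+genipin hearts, 495, 516 and 543 in LPS hearts and 1235, 1139 and 1159 in mock hearts, -1.86 ± 0.09 (adjusted p = 5.01e-06) from mock. Nmrk2, a nicotinamide riboside kinase of striated muscle, was at 1305, 1337 and 1373 in LPS+genipin hearts, 2237, 1797 and 2062 in LPS hearts and 3914, 5383 and 5444 in mock hearts, -1.86 ± 0.14 (adjusted p = 7.7e-05) from mock. For both the LPS arrays lay between the other groups. H19, an imprinted long noncoding RNA, was at 1008, 1159 and 1175 in LPS+genipin hearts, 1240, 1346 and 1236 in LPS hearts and 3921, 3538 and 3397 in mock hearts, -1.70 ± 0.08 (adjusted p = 7.61e-06) from mock and -0.20 ± 0.08 (adjusted p = 0.0945) from LPS hearts.

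Other genes among the 15 largest decreases included Kcnk2, the stretch-sensitive potassium channel TREK-1, at -1.48 ± 0.11 (adjusted p = 8.17e-05), and Ky, a muscle protein named for kyphoscoliosis, at -1.30 ± 0.06 (adjusted p = 8.17e-06). LPS hearts were lower still, at -1.89 and -2.07. Gal, the neuropeptide galanin, was at 251, 232 and 330 in LPS+genipin hearts, 941, 738 and 596 in LPS hearts and 917, 768 and 716 in mock hearts, so that only the LPS+genipin arrays were low, 2 of them below the floor. Tnfrsf19, a receptor of the TNF family, lay near the floor in both LPS+genipin and LPS hearts (-1.28 and -1.34). Sertad4 (-1.20), Baz2b (-1.29), the transcription factor Usf1 (-1.27) and the olfactory receptor Olfr983 (-1.22) completed the group. Usf1 was at 302, 253 and 248 in LPS+genipin hearts, 602, 443 and 395 in LPS hearts and 796, 726 and 508 in mock hearts, low on every array.

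Genes of cardiac stress were mostly lower where they passed. Of 13 measured, 8 were lower and only Timp1, an inhibitor of metalloproteinases, was higher (1.22, 4.93 in LPS hearts). Gdf15, a stress cytokine, was at 262, 314 and 377 in LPS+genipin hearts, 302, 275 and 298 in LPS hearts and 1043, 1041 and 1144 in mock hearts, -1.77 ± 0.12 (adjusted p = 5.83e-05) from mock, and LPS+genipin differed from LPS hearts by 0.11 ± 0.12 (adjusted p = 0.512), which did not pass. Nppb, the natriuretic peptide BNP, was at 16171, 17477 and 16661 in LPS+genipin hearts, 25413, 25237 and 25705 in LPS hearts and 28929, 23451 and 30104 in mock hearts, -0.71 ± 0.09 (adjusted p = 0.00172) from mock, and its LPS arrays lay within the range of the mock arrays. Ankrd1, a stretch-responsive protein of the sarcomere and nucleus, was at 45853, 40520 and 40922 in LPS+genipin hearts, 55508, 54598 and 52953 in LPS hearts and 59588, 59095 and 65487 in mock hearts, -0.53 ± 0.07 (adjusted p = 0.00157) from mock. Ccn2, connective tissue growth factor, was lower, at -0.65 ± 0.08 (adjusted p = 0.00129). The 4 others that were lower were Myh7 (-0.40), Rcan1 (-0.33), Postn (-0.29) and Xirp1 (-0.22), each of which lost its call when any of 5 or more arrays was left out; leaving out any array but mock array 3 left 4 or 5 of the 8. Acta1, skeletal alpha-actin, was saturated on all mock arrays but not on all LPS+genipin arrays and did not pass at -0.03, and Bnip3 (0.12), Fhl1 (-0.01) and Xirp2 (-0.04) did not pass.

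The contractile apparatus offered little range. Its counts and those of calcium handling stand beside 7.44% higher and 12.1% lower over all genes. Of 23 measured genes none was higher and 3 were lower, Myl7, Myh7 and Tpm1, a tropomyosin at -0.58 ± 0.07 (adjusted p = 0.00147), and 9 were saturated in both groups. Titin (Ttn, 0.18, with its probes between -0.21 and 0.18), desmin (Des, 0.06), Myom1 (0.08), Ldb3 (-0.22) and Myh7b (0.03) were within the range of the scanner and did not pass. Among 19 genes of calcium handling, Cacnb2, a subunit of the L-type calcium channel, was lower at -0.63 ± 0.12 (adjusted p = 0.00832) on the probe used and at 0.03 on another probe, and Casq1, a calsequestrin, was higher at 0.41 with a call lost when any of 4 arrays was left out. The exchanger Slc8a1 (0.15, with its probes between -0.27 and 0.15), Casq2 (0.02), Cacna1c (-0.08, and 0.51 on another probe) and Jph2 (-0.07) did not pass, and Atp2a2, Pln and Ryr2 were saturated.

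Ion channels gave 3 lower and 1 higher of 16, beside 12.1% lower and 7.44% higher over all genes. Kcnj8, the pore of the vascular ATP-sensitive potassium channel found in pericytes, was at 532, 588 and 576 in LPS+genipin hearts, 184, 228 and 200 in LPS hearts and 1029, 946 and 876 in mock hearts, -0.75 ± 0.07 (adjusted p = 0.000321) from mock. It shares this direction with Notch3 (-0.53), the other of 8 pericyte and smooth muscle markers that was lower; the 8 summed to 68109 to 69801 in LPS+genipin hearts, 91150 to 97190 in LPS hearts and 69687 to 88118 in mock hearts. Gja5 was another, and Gja1, the main ventricular connexin, fell by 0.28 or more, since its mock arrays were saturated, with a call lost when either of 2 arrays was left out. Kcna5 (0.43) was higher with a call lost when any of 5 arrays was left out. Kcnip2 (0.14, -1.59 in LPS hearts), Kcnj12 (-0.23, -1.16) and Kcnj11 (-0.27, -1.14), potassium channel genes well below mock in LPS hearts, did not pass in LPS+genipin hearts, and set against LPS hearts directly they were higher by 1.73 ± 0.15 (adjusted p = 6.1e-05), 0.93 ± 0.13 (adjusted p = 0.00076) and 0.87 ± 0.13 (adjusted p = 0.0013).

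Cardiac transcription factors included Irx4 (-0.65), a ventricular homeobox factor, and Nkx2-5 (-0.57), a factor of cardiac lineage, both lower, and Irx3 (0.74), higher, among 14 measured. Irx4 was at 1770, 1838 and 1855 in LPS+genipin hearts, 889, 952 and 822 in LPS hearts and 3221, 2673 and 2711 in mock hearts, with LPS+genipin hearts between LPS and mock hearts. In the list of growth factor and receptor signalling 4 of 15 were lower and 2 higher (12.1% and 7.44% over all genes). Tgfb2, a growth factor of the TGF-beta family, was lower, at -0.96 ± 0.14 (adjusted p = 0.0025), as were Npr3, the clearance receptor of natriuretic peptides, at -0.72 ± 0.09 (adjusted p = 0.00135), and Ednrb, an endothelin receptor, at -0.58 ± 0.11 (adjusted p = 0.00789), while Pde4b, a cyclic AMP phosphodiesterase, was higher by 0.62 ± 0.08 (adjusted p = 0.00208). Another probe gave -0.54 for Tgfb2 and -0.41 for Npr3.

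Chaperones were lower where they moved. Of 12 measured 5 were lower and none higher, and leaving out single arrays left 3 or 4 of them. Hspa1b (chromosome 17, 34956429 to 34959238), an inducible HSP70, was at 1252, 1252 and 1348 in LPS+genipin hearts, 3718, 3652 and 3336 in LPS hearts and 4304, 3891 and 4273 in mock hearts. It was -1.69 ± 0.07 (adjusted p = 2.46e-06) from mock and -1.47 ± 0.07 (adjusted p = 2.52e-06) from LPS hearts, which were at -0.22 from mock (adjusted p = 0.0293). Hsp90aa1, the inducible HSP90, was at 23197, 21989 and 20666 in LPS+genipin hearts, 31752, 31408 and 28339 in LPS hearts and 30428, 34031 and 36321 in mock hearts, -0.61 ± 0.08 (adjusted p = 0.00212) from mock, and Dnajb1, the HSP40 that works with HSP70, was lower, at -0.60 ± 0.07 (adjusted p = 0.00129). Hspa1b has a near-identical copy in the mouse genome, so the probe may read both. Hspa8, the constitutive HSP70, named after its values were seen, was at 62763, 64924 and 57739 in LPS+genipin hearts, 65484, 59771 and 60294 in LPS hearts and 65486, 65486 and 30 in mock hearts and did not pass; mock array 3 alone was at the bottom of the scale, where every other array was at 57739 or more.

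Genes of the unfolded protein response and ATF4 targets were lower for 7 of 20 and higher for 2, and without mock array 2 the lower count was 3. Herpud1, part of the machinery that degrades proteins of the endoplasmic reticulum, was at 15177, 15442 and 15242 in LPS+genipin hearts, 8012, 7715 and 7641 in LPS hearts and 7770, 7970 and 7312 in mock hearts. It was higher by 0.99 ± 0.05 (adjusted p = 1.12e-05) against mock and by 0.97 ± 0.05 (adjusted p = 4.68e-06) against LPS hearts, which were at 0.02 from mock. Chac1, which degrades glutathione, was higher by 0.74 ± 0.11 (adjusted p = 0.00321). Apart from Gdf15, those lower were within 0.45 of mock in size, among them Pdia6 (-0.43) and Pdia3 (-0.45), disulphide isomerases; the call of Pdia3 was lost when either of 2 arrays was left out.

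In matrix genes, 4 of 25 were higher and 2 lower, where over all genes 7.44% were higher and 12.1% lower. Besides Timp1, the protease Mmp14 (0.75), its inhibitor Timp3 (0.51) and Adamts9 (0.34) rose, and the basement membrane collagens Col18a1 (-0.62) and Col15a1 (-0.35) were lower. The fibrillar collagens Col1a1 (0.11) and Col3a1 (0.10) did not pass, and among 9 fibroblast markers Postn was the only one that passed. Of 20 cell cycle genes 7 were higher and 3 lower, and the largest increase was that of the inhibitor Cdkn1a (1.27), named above. Mki67, a marker of proliferation, was at 1.04 ± 0.12 (adjusted p = 0.000949) and Ccna2, cyclin A2, at 1.01 ± 0.11 (adjusted p = 0.000568). Cdkn1c, the inhibitor p57, was at -0.67 ± 0.07 (adjusted p = 0.000597). Another Mki67 probe gave 0.68. Without LPS+genipin array 2 the higher count was 4. Clock genes gave 1 of 15 higher and 2 lower, near the shares over all genes. Aminoacyl-tRNA synthetases gave 2 of 16 higher. Polyamine and tetrahydrobiopterin genes gave 2 of 9 higher, among them Gch1 (0.65 on the probe used and 0.13 on another). A list of MAP kinase phosphatases with Sprouty and Spred genes gave 2 higher and 1 lower of 14. Those higher were the Sprouty genes Spry1 (0.42) and Spry4 (0.38), and the phosphatase Dusp8 (-0.55) was lower. No phosphatase passed as higher, and the call of Spry1 was lost when any of 5 arrays was left out.

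The heart was set beside brain, kidney and liver of the same treatment groups in one fit over 36 arrays and the 6781 genes measured in all 4 organs. For 2061 genes (30.4%) the difference between LPS+genipin and mock in heart departed from the mean of the differences in the other 3 organs, with 753 higher in heart (11.1%) and 1308 lower (19.3%). In this fit 1749 genes passed in LPS+genipin against mock hearts (25.8%), 967 in brain (14.3%), 2298 in kidney (33.9%) and 4400 in liver (64.9%). Icam1 stood at 3.09 in heart, 2.55 in brain, 3.22 in kidney and 3.80 in liver, and heart did not depart from the others (adjusted p = 0.392). Lcn2 stood at 5.80, 6.83, 6.74 and 2.96 in the same order.

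**Figure D5:**
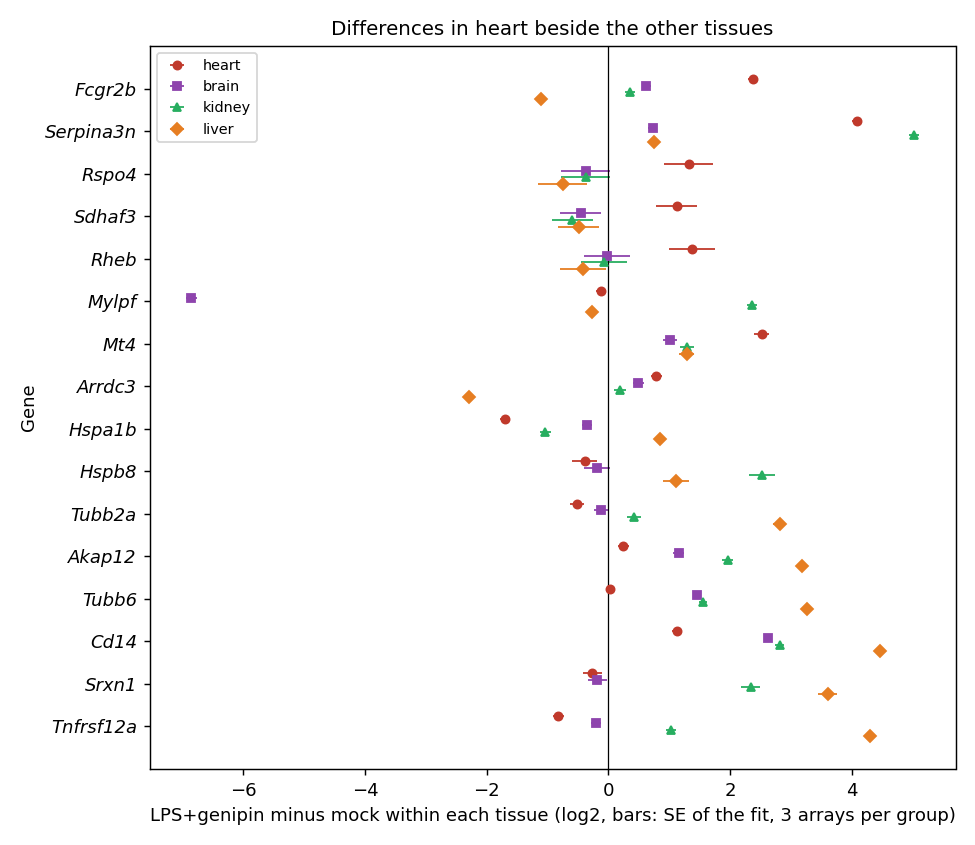
Differences between LPS+genipin and mock within each organ (log2, horizontal axis, bars SE of the fit) for the 8 genes whose heart difference lay farthest above and the 8 farthest below the mean of the other organs. Tnfrsf12a, at the bottom, reached 4.29 in liver and -0.82 in heart, and Fcgr2b, at the top, 2.37 in heart and -1.11 in liver.

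Genes whose difference in heart lay below the mean of the other organs included Tnfrsf12a, the receptor of TWEAK. It stood at -0.82 in heart, -0.20 in brain, 1.03 in kidney and 4.29 in liver, a departure of -2.53 ± 0.10 (adjusted p = 1.05e-17). Cd14 was higher in all 4 organs, at 1.12 in heart, 2.62 in brain, 2.81 in kidney and 4.46 in liver, and least so in heart. Srxn1, an NRF2 target that repairs peroxiredoxins, stood at -0.27 in heart, -0.18 in brain, 2.34 in kidney and 3.61 in liver, and did not pass in heart itself. Hspa1b was lower in heart, at -1.69, against -0.35 in brain, -1.03 in kidney and 0.85 in liver. On the other side Fcgr2b, the inhibitory receptor for immunoglobulin G, stood at 2.37 in heart, 0.62 in brain, 0.36 in kidney and -1.11 in liver, a departure of 2.42 ± 0.09 (adjusted p = 1.3e-18). In heart its intensities were 3553, 3567 and 3410 in LPS+genipin hearts, 5815, 6028 and 6020 in LPS hearts and 747, 580 and 722 in mock hearts. Mt4, a metallothionein, stood at 2.52 in heart, 1.01 in brain, 1.29 in kidney and 1.29 in liver, and was thus higher in each organ and most so in heart.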

How the data were processed

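The deposited values are one-colour Cy5 array intensities on a linear scale, normalized by the authors; the submitters' processing notes name limma without a version or role, and the sources used here give no background correction. The 9 heart arrays held nearly the same sorted values (median difference 0.0843%). Per the labels' protocols, 5 µg of RNA was labelled. Of 18183 probes 4640 were missing from all heart arrays. Probes were named through the platform annotation: 14817 had 1 symbol, 3366 none; symbols were current for 12468, updated for 2318 and kept as given for 31. Deposited intensities were raised to a floor at the 5th percentile of all values (262.7, as a whole number) and turned into log2 values. For a gene with several probes (1339 of 9669) the one with the highest mean over the heart arrays was used. Group means were fitted on the 9 heart arrays with limma 3.58.1 in R 4.3.3, with two-sided p-values adjusted by Benjamini-Hochberg. A group at the floor, or at 60000 or above, on all arrays gave a bound ("at least"), and no fold was given when both groups were at one limit; this held for 145 genes. Folds are on the scale of the floored values, which understates low genes. The number of arrays limits the precision.

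Members and lists were chosen with earlier results of these data known. Genes were named by rule as the 15 highest and lowest differences that passed without overlap between the arrays, up to 6 members per list by size among those that passed, all members of the cardiac lists, markers and classical LPS genes, and the 8 highest and lowest departures of heart from the other organs; genes named outside it are marked. Alternatives covered the floor, probe choice, normalization, model and single arrays. Tables and figures were made in Python 3.11.15 (matplotlib 3.10.9, numpy 2.4.6, pandas 2.3.3).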

Additional observations from a re-analysis of the deposited data

Results flagged for a closer look

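The difference between LPS+genipin and mock departed in heart from the mean of brain, kidney and liver in 2061 of 6781 genes (30.4%), by a test of that departure in the fit over 36 arrays. The 16 genes given here are the 8 farthest in each direction. The departure was -2.53 ± 0.10 (adjusted p = 1.05e-17) for Tnfrsf12a, -2.19 ± 0.18 (adjusted p = 1.6e-10) for Srxn1 and -2.18 ± 0.08 (adjusted p = 1.66e-18) for Cd14. It was -2.06 ± 0.07 (adjusted p = 1.3e-18) for Tubb6 and -1.56 ± 0.13 (adjusted p = 1.3e-10) for Tubb2a, both tubulins, which stood at 0.03 and -0.52 in heart and at 3.27 and 2.82 in liver. Akap12, a scaffold of protein kinase A, departed by -1.85 ± 0.10 (adjusted p = 3.7e-14). It stood at 0.25 in heart, 1.16 in brain, 1.96 in kidney and 3.18 in liver. Among chaperones Hspb8 departed by -1.54 ± 0.24 (adjusted p = 1.48e-05) and Hspa1b by -1.51 ± 0.10 (adjusted p = 8.3e-13). Hspb8 stood at -0.39 in heart, where it did not pass, -0.18 in brain, 2.53 in kidney and 1.11 in liver.

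Fcgr2b departed upward by 2.42 ± 0.09 (adjusted p = 1.3e-18), Mt4 by 1.32 ± 0.14 (adjusted p = 2.11e-08) and Arrdc3 by 1.32 ± 0.11 (adjusted p = 1.3e-10), the last at 0.79 in heart, 0.49 in brain, 0.19 in kidney and -2.29 in liver. Serpina3n departed by 1.92 ± 0.09 (adjusted p = 1.3e-15) and stood at 4.08 in heart, 0.73 in brain, 5.03 in kidney and 0.75 in liver, so that kidney lay above heart; its liver arrays were saturated in LPS+genipin mice, so the departure is an upper limit. Sdhaf3, an assembly factor of succinate dehydrogenase, departed by 1.64 ± 0.39 (adjusted p = 0.00188). Rspo4 departed by 1.82 ± 0.47 (adjusted p = 0.00378) and Rheb, a GTPase that activates mTOR, by 1.54 ± 0.44 (adjusted p = 0.00804), and in both mock array 3 was lower than the other mock hearts: without it the departures were 1.16 (adjusted p = 0.0347) and 0.84 (adjusted p = 0.0713). In the fit over heart arrays alone these 3 genes did not pass between LPS+genipin and mock hearts, at adjusted p = 0.164 for Sdhaf3, 0.127 for Rspo4 and 0.135 for Rheb. Mylpf, a myosin light chain of fast skeletal muscle, departed by 1.47 ± 0.10 (adjusted p = 2.54e-12) and stood at -0.12 in heart, -6.86 in brain, 2.37 in kidney and -0.28 in liver; brain was the organ farthest from heart, and heart itself did not pass.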

How the results depend on the processing

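The counts over all genes held within 1.5 times under every alternative to the floor, filter, probe choice, normalization and model that was run, except that a floor of 500 left 20 genes lower at least 2-fold. Leaving out 1 array gave 1197 to 1502 genes passing in heart, 475 to 627 higher and 684 to 904 lower, with 147 to 170 at least 2-fold (114 to 133 higher, 27 to 37 lower). It gave 1644 to 1878 genes departing from the other organs, 589 to 667 higher and 1052 to 1213 lower. Same-numbered arrays did not deviate together (r of -0.12, 0.0034 and 0.042), and differently numbered ones ranged from -0.25 to 0.26. With 3 arrays per group this cannot settle whether the numbers pair the arrays. With the replicate block 1334 genes passed in heart (541 higher, 793 lower), 149 at least 2-fold, and 1884 departed from the other organs. Of 177 named or listed genes that passed in heart, 33 lost their call without at least 1 array. In the gene lists, counts of up to 2 members often moved by over 1.5 times when an array was left out. Among the named or listed genes that passed, no difference reversed under an alternative that was run. Changes of genes at the floor or at saturation are bounds or could not be measured.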

Other observations

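The genes in this paragraph were picked after their values were seen, for LPS hearts that lay nearer to mock than LPS+genipin hearts did. Flvcr2, a choline and haem transporter, was at 1012, 888 and 1164 in LPS+genipin hearts, 448, 463 and 402 in LPS hearts and 341, 354 and 355 in mock hearts, 1.54 ± 0.10 (adjusted p = 4.63e-05) from mock and 1.22 ± 0.10 (adjusted p = 5.07e-05) from LPS hearts. Crh, corticotropin-releasing hormone, was at 1249, 1012 and 830 in LPS+genipin hearts, 339, 314 and 527 in LPS hearts and 411, 354 and 482 in mock hearts, 1.30 ± 0.23 (adjusted p = 0.00623) from mock. Clec4e, a receptor of myeloid cells for microbial glycolipids, was at 7215, 4271 and 5287 in LPS+genipin hearts, 1931, 2260 and 3626 in LPS hearts and 3116, 3008 and 2797 in mock hearts, 0.88 ± 0.25 (adjusted p = 0.0452) from mock. Lower in LPS+genipin hearts were Lrrn2, at -1.09 ± 0.14 (adjusted p = 0.00154), and Sting1, the adaptor that signals cytosolic DNA, at 2401, 1593 and 1629 in LPS+genipin hearts, 3327, 3214 and 3519 in LPS hearts and 2666, 3964 and 4725 in mock hearts, with an adjusted p of 0.0177 against mock and -0.86 ± 0.23 (adjusted p = 0.0164) from LPS hearts. LPS against mock hearts gave 0.32, -0.11, -0.24, -0.20 and -0.14 for these genes in the order named.

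Single spots stood far from the other arrays of their group in some genes, which are named here after their values were seen. Casp1, the caspase of the inflammasome, was at 2189, 2258 and 2259 in LPS+genipin hearts, 4517, 4442 and 5410 in LPS hearts and 1560, 1626 and 332 in mock hearts, and its difference of 1.24 did not pass; mock array 3 was the spot that stood apart. Abcc9, the sulphonylurea subunit that pairs with Kcnj8, was at 17798, 16576 and 890 in LPS+genipin hearts, 10891, 10181 and 10117 in LPS hearts and 20203, 5796 and 17843 in mock hearts and did not pass.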
